A study of Mus musculus with 8 samples.

Results

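The 35 genes described here encode the core machinery of autophagy and of the lysosome, and their mRNA levels were compared between FoxO3 null and wild type mouse neurospheres. They were chosen by name for their role, by a rule that itself uses no measured values, and all 35 were measured among the 18193 genes that the arrays cover by a probe set with a single gene symbol. Where a gene had several probe sets, the one with the strongest mean signal stood for it. FoxO3 null neurospheres came from the forebrains of FVB/N mice that were FoxO3-/-, and wild type neurospheres from the forebrains of FoxO3+/+ mice of the same strain. In both genotypes neural stem and progenitor cells were purified on density gradients and grown in serum-free medium with EGF and bFGF, each at 20 ng/ml, and the secondary neurospheres, the spheres that re-form after the first ones are taken apart, were collected on day 6. The labels give no age beyond the word adult in the study's title, do not describe the null allele, and number 2 arrays of each genotype in each of 2 sets, without saying what a set is or whether arrays stand for separate mice or cultures. The p-values therefore measure only how far these arrays scatter, which may reflect technical variation.

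Autophagy wraps cytoplasm in a double membrane, the autophagosome, which then fuses with the lysosome, where acid hydrolases digest the cargo. A kinase complex starts the process, a lipid kinase complex and lipid carriers build the membrane, and ubiquitin-like conjugation reactions attach proteins of the LC3 and GABARAP family to it. FoxO transcription factors are known to act on autophagy genes in several tissues, muscle among them, and TFEB is the factor best known for driving lysosomal genes through an E-box motif.

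The arrays of the whole series had medians of 6.28 to 6.31 on the log2 scale. The first principal component separated the sets and held 67.6% of the variance, and any 2 arrays of a set correlated at 0.996 or above, against 0.991 at most for arrays of different sets. Set was therefore a term in the comparison of genotypes. Foxo3 itself read 8.86, 9.08, 9.05 and 9.14 on the null arrays 1_1, 1_2, 2_1 and 2_2, against 10.24, 10.26, 10.32 and 10.00 on the wild type arrays in the same order, so the signal of its brightest probe set in the null arrays was 44.5% of that in the wild type arrays. The next probe set was at 47.8%, one that another gene shares was at 71.5%, and the dimmest, at 126%, went the other way. The labels do not say which of these probe sets the null allele affects. Of 9 measured neural progenitor markers 8 lay above the median gene, as did 6 of 7 astrocyte and 5 of 6 oligodendrocyte-lineage markers, while 0 of 13 microglia and macrophage markers and 0 of 7 endothelial markers did. Of the 35 autophagy and lysosome genes, 31 lay above the median gene's signal of 7.41.

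Of these 35 genes, 2 fell in FoxO3 null neurospheres and 0 rose. Wipi1, a phosphoinositide-binding protein of the growing autophagosome membrane, fell by 0.32 on the log2 scale, to 80.4% of wild type, and Gabarapl1, a GABARAP-family protein that is attached to that membrane, fell by 0.27, to 83.0%. The 2 genes that fell are 5.71% of the list, and 1.17% of all genes fell at the same threshold, a limma p adjusted over all 18193 genes of 0.05. Among all genes 0.429% rose. Most of the 35 genes had signals above the median gene. When only genes above the median level were fitted, with their own adjustment, 289 of 9096 fell and 167 rose. The fit over all genes called 213 lower and 78 higher. Of the 31 listed genes in the narrower fit, 2 passed, Wipi1 and Gabarapl1, both lower. At an unadjusted p of 0.05, 5 of the genes were lower, 14.3% of the list, and 7.18% of all genes were. At the same limit 3 were higher, 8.57% of the list, which is near the 8.32% of all genes. The median difference over the list was -0.03, and over all genes it was 0.0091. Differences were negative for 23 genes and positive for 12, so 65.7% were negative, as were 45.8% over all genes. These are RNA levels of whole spheres, in which fewer cells of a type and less RNA per cell cannot be told apart.

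**Figure D1:**
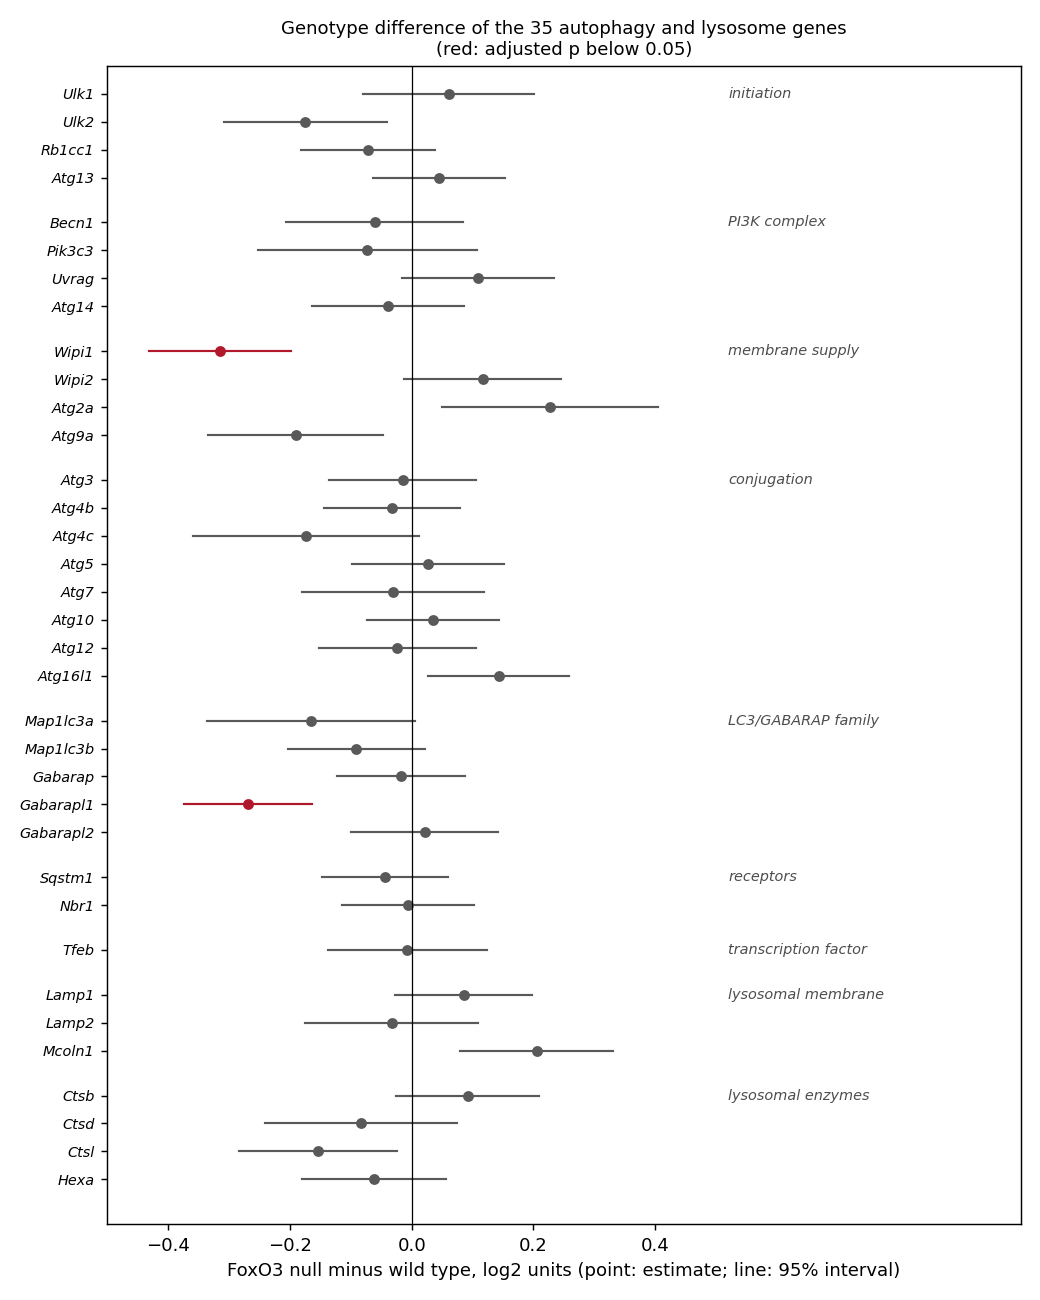
The horizontal axis gives FoxO3 null minus wild type in log2 units for each of the 35 genes, grouped by role down the page; points are limma estimates from 4 arrays of each genotype with set as a term, and lines are 95% intervals. Only Wipi1 and Gabarapl1, in red, had a limma adjusted p below 0.05; the other 33 estimates lie between -0.19 and 0.23.

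With the brightest probe set of each of the 35 genes, every interval stayed inside a 1.5-fold change in either direction, and 28 stayed inside 1.25-fold. No estimate of these probe sets reached 1.25-fold. Dimmer probe sets went past it in Wipi1, with 1 at -0.58, and in Gabarapl1, at -0.33, while the other dimmer probe sets of Wipi1 differed less. The half-width of the 95% interval ran from 0.10 to 0.19 on the log2 scale, which is the size of difference that 4 arrays of each genotype could resolve for a gene before adjustment for many tests. In 4 genes, 11.4% of the list, every null array was below every wild type array, and 1.69% of all genes were separated this way. These genes were Ulk2, Rb1cc1, Wipi1 and Gabarapl1. In 0 of the 35 genes was every null array above every wild type array, which held for 2.02% of all genes.

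Wipi1 (chr11:109573521-109611389, GRCm38.p6) had log2 levels of 8.79, 8.90, 9.17 and 9.14 on the null arrays 1_1, 1_2, 2_1 and 2_2, against 9.18, 9.20, 9.50 and 9.38 on the wild type arrays in the same order. All 4 null arrays were below all 4 wild type arrays, but only just across sets, since the set 2 null arrays nearly met the set 1 wild type arrays. The means were 9.00 ± 0.19 in null and 9.31 ± 0.15 in wild type neurospheres (SD, n = 4 each), and the difference of -0.32 ± 0.05 (SE) had a limma adjusted p of 0.0170. It was -0.35 in set 1 and -0.29 in set 2, with limma adjusted p of 0.0855 and 0.110 when the sets were tested apart. Wipi1 has 6 probe sets on the array. At probe set level, where 0.802% of all probe sets passed, 2 of the 6 passed. The fourth in brightness differed by -0.58 ± 0.08 (SE, limma adjusted p 0.0106), while the second differed by -0.02 and the dimmest by 0.12. The probe sets thus do not all move with the one that stands for the gene, and their mean, -0.19, had a limma adjusted p of 0.0653. The call was also lost without null array 1_1, null array 2_2, wild type array 1_1 or wild type array 2_1, with a limma adjusted p of up to 0.0679.

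Gabarapl1 (chr6:129533192-129542331) had levels of 10.69, 10.70, 10.81 and 10.88 on the null arrays 1_1, 1_2, 2_1 and 2_2, against 10.94, 10.98, 11.16 and 11.09 on the wild type arrays in the same order. The genotypes did not overlap, and the gap was alike in both sets: -0.26 in set 1 and -0.27 in set 2, with limma adjusted p of 0.155 and 0.0957. The means were 10.77 ± 0.09 in null and 11.04 ± 0.10 in wild type neurospheres (SD, n = 4 each), and the difference was -0.27 ± 0.05 (SE) with a limma adjusted p of 0.0213. Both probe sets of the gene passed at probe set level, the second at -0.33 ± 0.05 (SE, limma adjusted p 0.0242). With the replicate numbers as a block the limma adjusted p was 0.0764, and without 1 array it passed only when wild type array 2_2 was left out, reaching 0.0849 at most over the 8 arrays left out in turn.

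**Figure D2:**
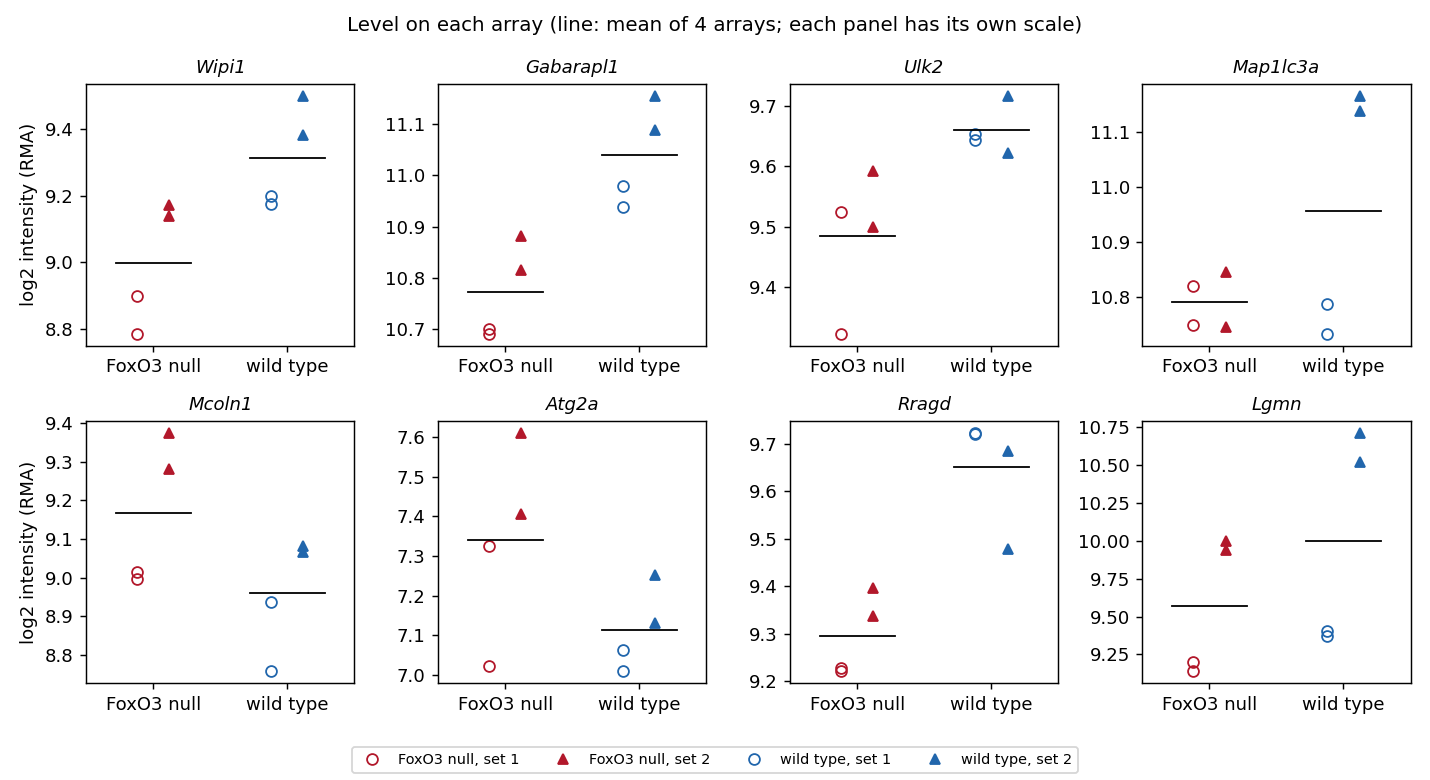
Each panel gives the RMA log2 intensity of a gene on the 8 arrays, null arrays left in red and wild type arrays right in blue, with open circles for set 1 and filled triangles for set 2 and a line at the mean of 4 arrays. Null and wild type arrays do not overlap in Wipi1, Gabarapl1, Ulk2 and Rragd, and in Map1lc3a they stand apart in set 2, where the null arrays read 10.75 and 10.85 and the wild type arrays 11.14 and 11.17.

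The promoters of the genes were searched for the forkhead core GTAAACA, one exact form of the letters that FoxO factors bind, on both strands. RefSeq promoter windows, from 250 bases before to 50 bases after a start listed for the gene, were at hand for 28 of the 35 genes, in 32 windows. That start is not always the outermost one: the Atg7 window, chr6:114670846-114671145, lies inside the gene, which begins at 114643127. In 0 of the 32 was GTAAACA found, which 3.65% of all 32851 windows hold. A share that low leaves few matches to be expected in 32 windows, so the 0 says little. The 250 bases before the start of the 2 genes that fell are given here to show what was searched, on GRCm38.p6, 5′ to 3′ on the gene's strand. The Wipi1 window is chr11:109611390-109611639 on the minus strand and the Gabarapl1 window chr6:129532942-129533191 on the plus strand; they hold no match to any motif searched, so no letter is in capitals.
Wipi1: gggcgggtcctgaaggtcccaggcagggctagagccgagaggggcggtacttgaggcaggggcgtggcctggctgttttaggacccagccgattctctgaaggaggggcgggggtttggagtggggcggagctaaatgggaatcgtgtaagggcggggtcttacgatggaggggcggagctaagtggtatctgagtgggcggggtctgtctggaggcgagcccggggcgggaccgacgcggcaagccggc
Gabarapl1: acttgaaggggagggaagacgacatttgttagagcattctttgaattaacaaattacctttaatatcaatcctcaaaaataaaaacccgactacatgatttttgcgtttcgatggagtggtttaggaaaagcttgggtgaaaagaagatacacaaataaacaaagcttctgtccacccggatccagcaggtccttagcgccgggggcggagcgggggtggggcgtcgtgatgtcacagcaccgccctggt
No match says only that these exact letters are not in this window. Other forms of the forkhead core were not searched.

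Among the initiation genes, Ulk1 and Ulk2 are the kinases that start autophagosome formation, Rb1cc1 is the scaffold of their complex and Atg13 its adaptor. Ulk2 had levels of 9.32, 9.52, 9.50 and 9.59 on the null arrays 1_1, 1_2, 2_1 and 2_2, against 9.65, 9.64, 9.72 and 9.62 on the wild type arrays in the same order. All null arrays were below all wild type arrays, and the closest pair, 9.59 in null and 9.62 in wild type, was in set 2. The difference of -0.17 ± 0.06 (SE) did not pass (limma adjusted p 0.202), but its 3 brightest probe sets agreed in size, at -0.17, -0.21 and -0.24, with limma adjusted p of 0.272, 0.148 and 0.193 at probe set level. Rb1cc1 had levels of 8.94 to 9.00 in null and 9.02 to 9.13 in wild type neurospheres, and its difference of -0.07 (limma adjusted p 0.544) was the smallest of the 4 genes whose genotypes did not overlap. Ulk1 differed by 0.06 and Atg13 by 0.04, with limma adjusted p of 0.719 and 0.734.

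Of the 4 genes of the lipid kinase complex that marks the site of membrane growth, 0 passed. Becn1, its regulatory subunit, differed by -0.06 (95% interval -0.21 to 0.09), and Pik3c3, its catalytic subunit, by -0.07 (-0.25 to 0.11). Atg14, which directs the complex to autophagosome formation, differed by -0.04 (-0.16 to 0.09). Uvrag, the subunit of a second form of the complex that acts at endosomes, read 9.21, 9.19, 9.12 and 9.21 on the null arrays 1_1, 1_2, 2_1 and 2_2, against 9.19, 9.20, 8.96 and 8.95 on the wild type arrays in the same order. The set 1 arrays of both genotypes read alike and the set 2 null arrays lay above the set 2 wild type arrays. The difference was 0.11 ± 0.06 (SE, limma adjusted p 0.398), at 0.21 in set 2 and 0.01 in set 1, and the difference between sets was not past the threshold (limma adjusted p 0.629).

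The 4 genes that supply lipid and membrane took opposite signs, and 1 of them, Wipi1, passed. Wipi1 and Atg9a were on the lower side. Atg9a, a membrane protein that scrambles lipids on the vesicles that seed the autophagosome, read 7.84, 7.79, 7.91 and 8.13 on the null arrays 1_1, 1_2, 2_1 and 2_2, against 7.88, 7.94, 8.33 and 8.29 on the wild type arrays in the same order. The null arrays were below the wild type arrays within each set, while the set 2 null arrays overlapped the set 1 wild type arrays. The difference was -0.19 ± 0.06 (SE, limma adjusted p 0.194).

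Wipi2 and Atg2a were on the higher side. Atg2a, which channels lipid into the growing membrane, read 7.02, 7.33, 7.61 and 7.41 on the null arrays 1_1, 1_2, 2_1 and 2_2, against 7.01, 7.06, 7.13 and 7.25 on the wild type arrays in the same order. Null array 1_1 lay among the wild type arrays and the others above them. At 0.23 ± 0.08 (SE, limma adjusted p 0.209) it was the highest estimate of the list. Wipi2, the relative of Wipi1 that recruits the conjugation enzymes, read 8.84, 8.74, 9.17 and 9.09 on the null arrays, against 8.62, 8.57, 9.05 and 9.15 on the wild type arrays in the same order, a difference of 0.12 ± 0.06 (SE, limma adjusted p 0.374). In set 2 the genotypes of Wipi2 overlapped.

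**Figure D3:**
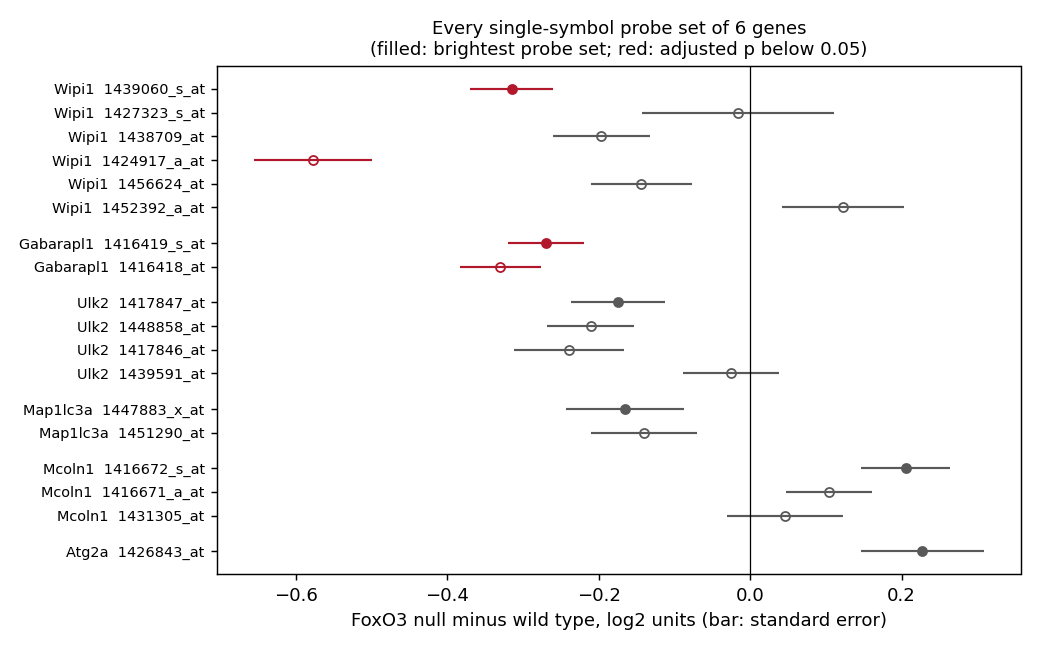
The horizontal axis gives FoxO3 null minus wild type in log2 units for every probe set with a single symbol of 6 genes, with the standard error as a bar and the brightest probe set of each gene filled. In red are those with a limma adjusted p below 0.05 over all probe sets: 2 of 6 for Wipi1 and both for Gabarapl1, while Ulk2, Map1lc3a, Mcoln1 and Atg2a have none.

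The 8 conjugation genes had a median difference of -0.02 and 0 of 8 passed. They are the E1-like enzyme Atg7, the E2-like enzymes Atg3 and Atg10, the ubiquitin-like protein Atg12, its partners Atg5 and Atg16l1, and the proteases Atg4b and Atg4c that process LC3 and GABARAP proteins. Atg16l1 read 8.08, 8.20, 8.20 and 8.22 on the null arrays 1_1, 1_2, 2_1 and 2_2, against 7.94, 8.03, 8.05 and 8.10 on the wild type arrays in the same order. Only null array 1_1 reached into the wild type range. The difference was 0.14 ± 0.05 (SE, limma adjusted p 0.222).

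Atg4c read 6.32, 6.57, 7.07 and 7.17 on the null arrays 1_1, 1_2, 2_1 and 2_2, against 6.77, 6.57, 7.39 and 7.10 on the wild type arrays in the same order. The genotypes overlapped in both sets, and the difference was -0.17 ± 0.08 (SE, limma adjusted p 0.362). The other 6 conjugation genes lay within -0.03 to 0.03. For Atg5 the difference was 0.03 (95% interval -0.10 to 0.15), for Atg7 -0.03 (-0.18 to 0.12), for Atg3 -0.01, for Atg4b -0.03, for Atg10 0.03 and for Atg12 -0.02. Atg5 lies at chr10:44268322-44364299, 1.99 Mb from the end of Foxo3 on the same chromosome. Its dimmer probe sets took opposite signs, at 0.18 and -0.09 (limma adjusted p 0.302 and 0.609 at probe set level).

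Of the 5 LC3 and GABARAP proteins, Gabarapl1 alone passed. Gabarap differed by -0.02 (95% interval -0.12 to 0.09), Gabarapl2 by 0.02 (-0.10 to 0.14) and Map1lc3b by -0.09 (-0.20 to 0.02). Map1lc3a, one of the LC3 proteins, read 10.75, 10.82, 10.75 and 10.85 on the null arrays 1_1, 1_2, 2_1 and 2_2, against 10.73, 10.79, 11.14 and 11.17 on the wild type arrays in the same order. All 4 null arrays and both set 1 wild type arrays read alike, and the 2 set 2 wild type arrays stood above them. Over both sets the difference was -0.17 ± 0.08 (SE, limma adjusted p 0.339).

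Tested within the sets, Map1lc3a was the single gene of the list that passed in set 2, at -0.36 ± 0.07 (SE, limma adjusted p 0.0423), where 1.21% of all genes fell and 0.715% rose. In set 1 it differed by 0.02, and 0 of the 35 genes passed there, where 0.572% of all genes fell and 0.17% rose (limma). At an unadjusted p of 0.05, 3 of the 35 were lower in set 1 and 1 was higher, where 5.32% and 5.56% of all genes were. The difference between sets, -0.38 for Map1lc3a, had a limma adjusted p of 0.286, so an effect in one set alone was not shown. In 0 of the 35 genes did the interaction of genotype and set pass, against 0.187% of all genes, and 1 of the 35, Map1lc3a, had an unadjusted p below 0.05 by limma, as did 8.7% of all genes. With set 2 fitted alone, or with any 1 array left out, the set 2 call for Map1lc3a was not made. Of the 35 genes, 20 kept 1 sign across the sets. That is 57.1% of the list, and among all genes the share was 57.3%.

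The 2 cargo receptors and the transcription factor had differences of -0.04 to -0.01, and 0 of these 3 genes passed. Sqstm1, the ubiquitin-binding receptor p62, had levels of 11.56 to 11.67 in null and 11.60 to 11.70 in wild type neurospheres and differed by -0.04 (95% interval -0.15 to 0.06). Nbr1, a receptor of similar build, differed by -0.01 (-0.11 to 0.10). Tfeb had levels of 7.99 to 8.15 in null and 7.98 to 8.15 in wild type neurospheres, a difference of -0.01 (-0.14 to 0.12).

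Of the 3 lysosomal membrane genes, Mcoln1, the calcium channel mucolipin 1, read 9.01, 9.00, 9.37 and 9.28 on the null arrays 1_1, 1_2, 2_1 and 2_2, against 8.76, 8.94, 9.07 and 9.08 on the wild type arrays in the same order. The null arrays were above the wild type arrays within each set, by little in set 1, and the set 1 null arrays lay below the set 2 wild type arrays. The difference of 0.21 ± 0.06 (SE) had a limma adjusted p of 0.119, the lowest among the 33 genes that did not pass. Its 2 dimmer probe sets differed by 0.10 and 0.05. Lamp1 and Lamp2, the abundant glycoproteins that line the lysosome, differed by 0.09 (95% interval -0.03 to 0.20) and -0.03 (-0.17 to 0.11).

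The 4 lysosomal enzymes are the cysteine proteases cathepsin B and cathepsin L (Ctsb, Ctsl), the aspartic protease cathepsin D (Ctsd) and the alpha subunit of the hexosaminidase that degrades gangliosides (Hexa). By genotype 0 of the 4 passed. Ctsl read 11.51, 11.56, 11.75 and 11.94 on the null arrays 1_1, 1_2, 2_1 and 2_2, against 11.65, 11.72, 12.07 and 11.94 on the wild type arrays in the same order, a difference of -0.15 ± 0.06 (SE, limma adjusted p 0.240). In set 2 the genotypes of Ctsl met at 11.94.

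Ctsd read 11.21, 11.30, 11.49 and 11.62 on the null arrays 1_1, 1_2, 2_1 and 2_2, against 11.18, 11.23, 11.86 and 11.68 on the wild type arrays in the same order, a difference of -0.08 ± 0.07 (SE, limma adjusted p 0.642). Its genotype difference was -0.22 in set 2 and 0.05 in set 1 (limma adjusted p of their difference 0.578). Ctsb read 11.65, 11.72, 12.14 and 12.20 on the null arrays, against 11.60, 11.69, 12.07 and 11.98 on the wild type arrays in the same order, a difference of 0.09 ± 0.05 (SE, limma adjusted p 0.454). Hexa differed by -0.06 (95% interval -0.18 to 0.06).

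In all 4 enzymes the sets stood further apart than the genotypes. This held over the list: the difference between sets was larger in size than that between genotypes in 28 of the 35 genes, with a median size of 0.20 against 0.07 on the log2 scale. By limma, 20 of the 35 genes were higher in set 2 and 1 was lower, and 22.2% of all genes were higher and 21.6% lower. The higher genes are thus 57.1% of the list and the lower 1 is 2.86%. The median difference, set 2 minus set 1, was 0.19 over the list and -0.01 over all genes. All 4 lysosomal enzymes, all 4 membrane supply genes, 2 of 4 initiation genes, 2 of 4 genes of the lipid kinase complex, 4 of 8 conjugation genes, 2 of 5 LC3 and GABARAP genes and 2 of 3 lysosomal membrane genes were higher in set 2, while the 2 receptors and Tfeb did not pass.

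Atg4c had the largest set effect of the list, with a mean of 7.18 in set 2 and 6.56 in set 1, a difference of 0.62 ± 0.08 (SE, limma adjusted p 0.000272). Ctsd was 0.43 ± 0.07 higher (SE, limma adjusted p 0.000890), with means of 11.66 in set 2 and 11.23 in set 1. Ctsb was 0.43 ± 0.05 higher, at 12.10 in set 2 and 11.66 in set 1. In these 3 genes, and in 14 of the 35 in all, the 4 arrays of set 2 lay above the 4 arrays of set 1, which held for 19.5% of all genes. Wipi2 was 0.42 ± 0.06 higher in set 2 and Ctsl and Hexa by 0.31 and 0.38. Map1lc3b was the gene that went the other way, with 11.74 in set 2 and 11.96 in set 1, a difference of -0.22 ± 0.05 (SE, limma adjusted p 0.00558). It was also the 1 gene of the list with every set 2 array below every set 1 array, as were 18.6% of all genes.

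Markers of other cell types moved with the sets. The mean of 6 oligodendrocyte-lineage markers was 9.20 to 9.57 on the set 2 arrays and 7.89 to 8.17 on the set 1 arrays, and all 6 were higher in set 2. The mean of 7 astrocyte markers was 10.48 to 10.84 on the set 2 arrays and 10.19 to 10.33 on the set 1 arrays, and 3 of the 7 were higher in set 2. The mean of 13 microglia and macrophage markers was 5.40 to 5.46 on the set 2 arrays and 5.51 to 5.57 on the set 1 arrays, with 1 of them, P2ry12, higher in set 2 by 0.54 and 6 lower. The 3′ minus 5′ signal of actin, a measure of RNA integrity, was 0.33 to 0.39 on the set 2 arrays and 0.47 to 0.54 on the set 1 arrays, while that of Gapdh overlapped, at -0.11 to -0.07 on the set 2 arrays and -0.10 to -0.07 on the set 1 arrays. The mean of 3 Y-linked genes was 6.88 to 7.80 on the set 2 arrays and 7.90 to 8.35 on the set 1 arrays. Their part in the set difference was not tested.

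**Figure D4:**
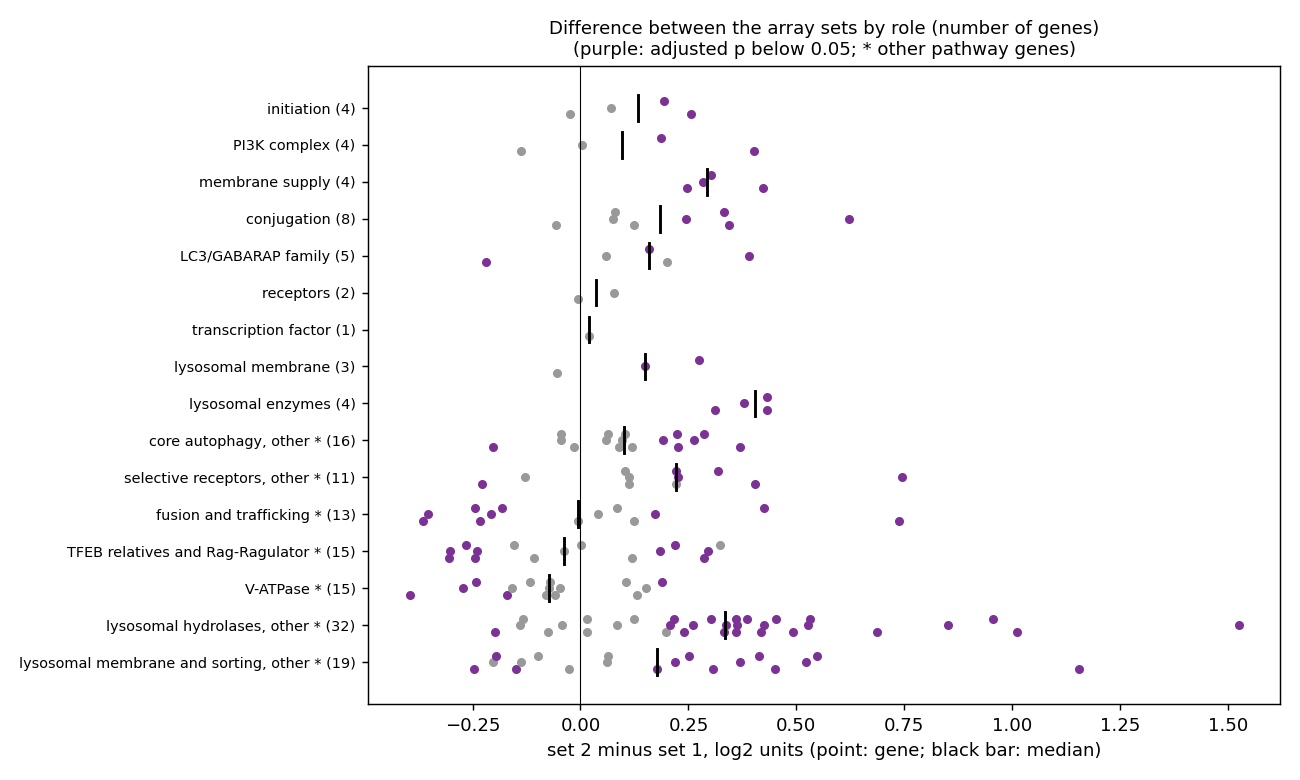
The horizontal axis gives set 2 minus set 1 in log2 units, each point a gene and each black bar the median of its role; the upper 9 rows are the 35 genes and the rows with an asterisk the 121 other pathway genes. Genes with a limma adjusted p below 0.05 are purple: the 4 lysosomal enzymes and 22 of the 32 other lysosomal hydrolases are so on the higher side, against 1 of the 15 subunits of the lysosomal proton pump.

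Some of these markers also moved with genotype. Of the 9 measured neural progenitor markers, Nes rose by 0.29 (limma adjusted p 0.0332) and 0 fell, with 5 differences negative and 4 positive. The progenitor mean was 11.50 to 11.65 in null and 11.57 to 11.70 in wild type neurospheres. It was lower in null within both sets (exact permutation test within sets, two-sided p = 0.0556, and 0.257 without regard to set). Of the 6 measured oligodendrocyte-lineage markers 4 fell in null neurospheres: Pdgfra by 0.67, Cspg4 by 0.56, Sox10 by 0.27 and Gpr17 by 0.66 on the log2 scale (limma adjusted p 0.00598, 0.00893, 0.0264 and 0.0176), where 1.17% of all genes fell. The other 2 markers, the myelin genes Mbp and Mog, differed by 0.44 and 0.24 (limma adjusted p 0.184 and 0.395). Mbp differed by 0.01 in set 2 and by 0.87 in set 1, and its difference between sets passed (limma adjusted p 0.0366). The mean of that list was 7.89 to 9.25 in null and 8.09 to 9.57 in wild type neurospheres, and lower in null within both sets (exact permutation test within sets, two-sided p = 0.0556, the smallest it can give, and 0.514 without regard to set). The astrocyte mean was 10.19 to 10.66 in null and 10.28 to 10.84 in wild type neurospheres (exact permutation test within sets, two-sided p = 0.0556, and 0.429 without regard to set). Of the 7 astrocyte markers 1, Slc1a2, was past the threshold at -0.84. The other 6 ran from -0.32 for Aqp4 to 0.20 for Gfap, and 3 of the 7 were positive. The mean of 7 neuron markers was 7.34 to 7.50 in null and 7.52 to 7.66 in wild type neurospheres (exact permutation test within sets, two-sided p = 0.0556, and 0.0286 without regard to set, each the smallest it can give). Of these 7, Gad1 passed at -0.91, and 4 differed by 0.00 to 0.15. Snap25 and Dcx differed by -0.35 and -0.28 (limma adjusted p 0.0692 and 0.131). All 7 endothelial markers had positive differences, of 0.01 to 0.13, and 0 passed. The endothelial mean was 5.59 to 5.69 in null and 5.46 to 5.66 in wild type neurospheres. It was higher in null within both sets (exact permutation test within sets, two-sided p = 0.0556, and 0.171 without regard to set).

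Microglia and macrophages are rich in lysosomes, and their markers had a mean of 5.40 to 5.57 in null and 5.42 to 5.54 in wild type neurospheres, with 8 of the 13 below the lower quartile of all genes. The Y-linked mean was 6.88 to 8.09 in null and 7.66 to 8.35 in wild type neurospheres (exact permutation test within sets, two-sided p = 0.0556, and 0.229 without regard to set), and 2 of its 3 genes fell. With that mean as a covariate the difference was -0.32 for Wipi1 and -0.24 for Gabarapl1, with limma adjusted p of 0.475 and 0.608; within sets the covariate followed genotype (r = -0.861 over 8 arrays, as a description). The part of the other markers in the genotype result was not tested.

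Beside the 35 genes, 121 of 135 other listed genes of the pathway were measured, and the other 14 were not analysed here. Of these, 2 fell in null neurospheres, 1.65% of them, which is near the 1.17% of all genes, and 0 rose. At an unadjusted p of 0.05 by limma 15 were lower and 5 higher, 12.4% and 4.13% of them, against 7.18% and 8.32% of all genes. The median difference was -0.02. Both genes that fell belong to the lysosome. Among the 16 other core autophagy genes, the 13 fusion and trafficking genes and the 15 subunits of the lysosomal proton pump, 0 passed.

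Rragd (chr4:32982998-33022180), a Rag GTPase that brings the growth-controlling kinase mTORC1 to the lysosome, read 9.22, 9.23, 9.34 and 9.40 on the null arrays 1_1, 1_2, 2_1 and 2_2, against 9.72, 9.72, 9.68 and 9.48 on the wild type arrays in the same order. The genotypes did not overlap, and the gap was narrowest at wild type array 2_2. The difference was -0.36 ± 0.07 (SE, limma adjusted p 0.0363). With 1 array left out it passed only without wild type array 2_2 and reached 0.130 at most, and with the replicate block it was 0.108. The mean over its 3 probe sets differed by -0.20 (limma adjusted p 0.131).

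Lgmn (chr12:102394082-102439728), the asparagine-specific protease legumain, which matures cathepsins in the lysosome, read 9.14, 9.20, 10.00 and 9.94 on the null arrays 1_1, 1_2, 2_1 and 2_2, against 9.37, 9.40, 10.71 and 10.52 on the wild type arrays in the same order. Null arrays were below wild type arrays within each set, and the sets stood 1.01 log2 units apart. The difference was -0.43 ± 0.09 (SE, limma adjusted p 0.0386), at -0.22 in set 1 and -0.64 in set 2. With 1 array left out it passed only without null array 1_2, reaching 0.111 at most, and with the replicate block it was 0.106.

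Bnip3, a mitophagy receptor, missed the threshold over both sets at -0.69 ± 0.15 (SE, limma adjusted p 0.0550), and is named here after its values were seen. It read 12.16, 11.51, 12.40 and 12.25 on the null arrays 1_1, 1_2, 2_1 and 2_2, against 12.95, 12.63, 12.68 and 12.80 on the wild type arrays in the same order, with no overlap. The lowest value was that of null array 1_2.

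The E-box CACGTG, the core of the letters that TFEB binds, was present in 8 of the 32 promoter windows, 25% of them, and in 7.15% of all windows. In the other pathway genes it was present in 23% of 122 windows. The longer form TCACGTGA, which contains CACGTG and reads the same on both strands, was present in 3 of the 32 windows, 9.38%, and in 0.974% of all windows. The 8 genes are Atg3, Atg5, Atg14, Ctsd, Lamp1 and Mcoln1, and Atg7 and Ctsl, whose windows lie wholly inside the gene. Of these, 0 passed by genotype. In set 2, 7 were higher, all but Atg5, where 57.1% of the whole list and 22.2% of all genes were, and whether the motif bears on this was not tested.

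The windows of 3 lysosomal genes with more than 1 match are printed, 250 bases before the start, 5′ to 3′ on the gene's strand, with the E-box and its longer form in capitals: Mcoln1 at chr8:3500269-3500518 on the plus strand, Lamp1 at chr8:13158911-13159160 on the plus strand and Ctsd at chr7:142387828-142388077 on the minus strand of GRCm38.p6.
Mcoln1: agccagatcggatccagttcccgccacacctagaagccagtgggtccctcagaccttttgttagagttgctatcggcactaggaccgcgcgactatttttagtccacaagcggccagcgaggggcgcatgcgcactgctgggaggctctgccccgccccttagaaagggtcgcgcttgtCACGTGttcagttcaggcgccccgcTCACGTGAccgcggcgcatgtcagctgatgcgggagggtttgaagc
Lamp1: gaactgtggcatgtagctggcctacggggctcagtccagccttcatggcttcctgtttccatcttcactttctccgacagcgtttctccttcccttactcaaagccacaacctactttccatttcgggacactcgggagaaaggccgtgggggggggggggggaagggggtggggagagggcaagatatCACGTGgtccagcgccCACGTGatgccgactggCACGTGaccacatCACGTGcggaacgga
Ctsd: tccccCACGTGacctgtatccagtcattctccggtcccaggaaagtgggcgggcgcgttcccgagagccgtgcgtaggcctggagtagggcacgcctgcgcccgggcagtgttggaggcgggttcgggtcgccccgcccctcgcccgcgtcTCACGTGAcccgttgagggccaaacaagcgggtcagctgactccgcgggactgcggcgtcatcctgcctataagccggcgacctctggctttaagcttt
Lamp1 holds 4 matches and Mcoln1 and Ctsd hold 2 each, of which 1 is the longer form. A match describes the sequence and does not show that a factor binds there.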

How the data were processed

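Total RNA of 8 samples, 4 FoxO3 null and 4 wild type, was hybridised to Affymetrix Mouse430_2 arrays. The authors deposited normalized log2 intensities for 45101 probe sets. RMA made them, per the submitters' processing notes, with a version not given in the sources used here. RMA forces a like distribution on all arrays, so a shift common to all genes would not show.

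Of 45037 probe sets left after 64 controls, 34945 had 1 gene symbol in GEO's platform annotation and gave 18193 genes. Of the others, 932 had several symbols and 9160 had none. The 35 genes had 84 such probe sets. Genotype was tested with limma 3.58.1 (R 4.3.3), with set as a term and Benjamini-Hochberg adjustment over all genes at 0.05. The sets were also tested apart and against each other, and the set effect in the same fit. Marker levels were compared by exact permutation over arrays. The fit was tested on simulated data. No replicate was added or left out, and array number alone limits precision, since intensities have no counted depth.

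Genes given in full were those that passed, filled to 12 by smallest p, then the 4 with the largest set effect and the 3 with the smallest interaction p. The rule for the 35 genes uses no measured value, but the genes, lists and tests were proposed with earlier results of these data known. Marker and pathway lists are written from textbook roles. Promoter windows and coordinates are from RefSeq on GRCm38.p6.

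Titles number the arrays alike in both genotypes. Same-numbered arrays deviated together from their genotype means (r = 0.657 to 0.721), as the shared set makes them do. Within sets r was 0.118 in set 1 and -0.110 in set 2, so the numbers beyond the set were not shown to pair arrays, and set was kept as the term.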

Additional observations from a re-analysis of the deposited data

Results flagged for a closer look

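In each genotype's 4 arrays of the 35 genes and of Rragd and Lgmn, 74 groups in all, 3 held an array whose gap to the nearest other array passed Dixon's 95% limit as a share of the group's range. Chance gives about 1 in 20 groups. In Rb1cc1, wild type array 1_2 read 9.13, while the other wild type arrays read 9.02. In Atg16l1, null array 1_1 read 8.08, while the other null arrays read 8.20 to 8.22. In Rragd, wild type array 2_2 read 9.48, while the other wild type arrays read 9.68 to 9.72. In 0 of the 35 genes did the genotype difference itself differ between sets past the limma adjusted threshold.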

How the results depend on the processing

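The counts of genes passing by genotype depended on how set and the arrays' shared spread entered the fit. The count of all genes that fell, 213 as reported, was 2 with no set term, 104 with the replicate block, 47 with set 1 alone, 111 with set 2 alone, 457 with each set and genotype as a random block (estimated correlation -0.229), 0 on array means per set and genotype, 68 with set as a random block (correlation 0.546), 386 with a variance trend and 4 when the Y-linked mean was fitted as a covariate. The count that rose, 78 as reported, was in these 9 fits, in the same order, 1, 29, 16, 60, 339, 0, 21, 234 and 4, and was 167 among genes above the median level. With 1 array left out they were 80 to 164 and 24 to 66. Of the 35 genes, the 2 that fell became 1 (Wipi1) with the replicate block, 1 (Gabarapl1) with the mean of all probe sets, and 0 with no set term, with either set alone, with array means (limma, 8 at an unadjusted p of 0.05), with set taken as random and with the Y-linked covariate. Leaving out 1 array gave 0 to 2. The random block for set and genotype gave 1 gene that rose, Mcoln1. Renormalizing, centring, the robust fit and the probe set of largest variance left Wipi1 and Gabarapl1 as the genes that passed.

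The median difference of the list was 0.0148 with the Y-linked covariate and kept its sign and size within the spread of arrays otherwise. In set 1 the genes that fell numbered 1 among genes above the median level and 2 with a variance trend. In set 2 they numbered 3 in both of these fits, 2 with the mean of all probe sets, 0 with set 2 alone and with centred arrays, and 0 to 0 with 1 array left out. The genes lower in set 2 numbered 2 after renewed quantile normalization and among genes above the median level, and 1 to 2 with 1 array left out; these alternatives for the set effect were chosen after seeing the data. Map1lc3a differed by 0.0243 with set 1 alone and by 0.12 with the Y-linked covariate, and Uvrag by -0.00299 with that covariate, against the sign reported. The replicate block changed the call of Gabarapl1, Rragd and Lgmn and of no other named gene. The other causes were not tested. With 4 arrays of a genotype, differences under 0.10 to 0.19 on the log2 scale were not resolved even before adjustment for many tests. After adjustment, the largest difference in the list that did not pass was 0.23. Larger ones outside the list did not pass either, such as Mbp at 0.44 (limma adjusted p 0.184).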
